A study of Mus musculus with 8 samples.

Results

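Notch receptors, their ligands, target genes and the Notch-related gene Dlk1 were examined in 8 neuroblastomas of LSL-MYCN;Dbh-iCre mice. The 10 genes were Notch1 and Notch2 (receptors), Dll1, Dll3, Jag1 and Jag2 (ligands), Hes1 and Hey1 (targets), Hes6 and Dlk1, taken by name, with all probe sets that the platform annotation assigns to 1 gene alone. This gave 17 of 45101 probe sets and 10 of 18194 genes. Tumors 7 and 8 came from the superior cervical ganglion (SCG), a sympathetic ganglion of the neck, and tumors 1 to 6 from the adrenal, with 1 Affymetrix mouse whole-genome array each. All animals carried both alleles: a human MYCN transgene in the ROSA26 locus behind the CAG promoter and a loxP-flanked stop, and Dbh-iCre, which removes the stop in cells that use the promoter of dopamine β-hydroxylase, the enzyme that makes noradrenaline. All tumors were untreated, and ages of the tumor-bearing mice are not given for the single arrays in the sources used here. Normal adrenals were not analysed here, so levels are described among tumors only. Nothing in the labels states that the tumors came from separate mice, and p-values therefore measure the spread between these tumors.

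In Notch signaling, a membrane-bound ligand of the Delta or Jagged family on one cell engages a Notch receptor on its neighbor. The receptor is then cut by ADAM and γ-secretase proteases, and its intracellular part enters the nucleus, where it joins the DNA-binding protein RBPJ and induces repressors of the HES and HEY families, which hold back proneural transcription factors. HES6 is a relative that counteracts HES1, and DLK1 is a Delta-like protein without the domain that canonical ligands use to bind Notch. In the sympathetic nervous system the pathway is known for balancing glial and neuronal fates, and Dlk1 is an imprinted gene of chromaffin cells and of some neuroblastomas.

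Jag2, Hes6 and Dlk1 are the detected genes of the set whose probe sets were all highest in the same tumor, SCG tumor 7, and their promoter windows are shown for that reason. Each window runs from 250 bases before to 50 bases after a RefSeq transcript start (GRCm38.p6), 5′ to 3′ on the gene's strand, and capitals mark the E-box letters CANNTG, the general motif of basic helix-loop-helix factors. The Jag2 window is chr12:112929446-112929745 (minus strand), the Hes6 window chr1:91413989-91414288 (minus strand) and the Dlk1 window chr12:109452573-109452872 (plus strand).
Jag2: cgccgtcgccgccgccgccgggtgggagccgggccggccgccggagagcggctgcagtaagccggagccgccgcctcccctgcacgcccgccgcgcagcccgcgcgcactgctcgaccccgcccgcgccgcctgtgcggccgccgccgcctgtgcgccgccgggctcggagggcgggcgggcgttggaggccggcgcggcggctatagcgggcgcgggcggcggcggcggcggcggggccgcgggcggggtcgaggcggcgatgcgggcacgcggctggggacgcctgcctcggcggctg
Hes6: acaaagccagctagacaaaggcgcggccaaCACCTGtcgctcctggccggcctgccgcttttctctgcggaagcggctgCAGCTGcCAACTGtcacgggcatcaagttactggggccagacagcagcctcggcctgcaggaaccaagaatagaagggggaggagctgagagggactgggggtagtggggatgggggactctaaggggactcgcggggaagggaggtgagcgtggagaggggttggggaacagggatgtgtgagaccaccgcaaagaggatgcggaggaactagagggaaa
Dlk1: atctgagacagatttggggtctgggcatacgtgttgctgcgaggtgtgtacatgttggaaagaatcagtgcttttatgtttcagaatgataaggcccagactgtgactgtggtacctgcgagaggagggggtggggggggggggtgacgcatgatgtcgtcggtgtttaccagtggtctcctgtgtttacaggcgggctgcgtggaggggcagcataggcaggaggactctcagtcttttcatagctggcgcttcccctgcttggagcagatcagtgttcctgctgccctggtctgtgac
The Hes6 window lay at the annotated 5′ end of the gene, whereas the starts used for Jag2 and Dlk1 lay 317 and 338 bases inside it, and both of these windows fell wholly within the annotated gene. The Hes6 window held 3 CANNTG, and those of Jag2 and Dlk1 held 0. Of 32851 windows of the same length, 72.3% held at least 1 CANNTG and 17.6% at least 3. GC content was 86.0% for Jag2, 62.0% for Hes6 and 55.7% for Dlk1, against a median of 52.7% over all windows. In all, 8 of the 10 genes had a promoter window, with 10 windows among them. The targets Hes1 and Hey1 had none, so their promoters were not scanned. The 10 windows held neither CACGTG, the form of CANNTG to which MYC proteins bind best, nor the RBPJ core TGGGAA, on either strand. Over all windows, 7.2% and 25.6% held them. A match in such a window is a description of its letters, not a binding site.

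Levels are log2 values as deposited. Because different probe sets bind their targets unequally, no gene was ranked against another, and each was read against the background of its own array. That background was the 95th percentile of 84 probe sets for receptors of taste and smell (olfactory and vomeronasal), which lay between 6.71 (tumor 6) and 7.21 (tumor 2), and a probe set above it was called detected. Where a gene had several probe sets, the one with the highest mean over the 8 tumors stood for it. On these, 7 of the 10 genes were detected in all 8 tumors, against 54.6% of all genes. Hes1 and Notch2 were detected in 6 tumors each and Dll3 in none, as were 30.9% of all genes.

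Several arrays stood apart from the rest. In SCG tumor 7, all 11 measured noradrenergic markers had their lowest level, with the noradrenaline transporter gene Slc6a2 at 6.65, against 12.37 to 13.37 in the other tumors. The summed linear level of these markers was 21877 in tumor 7 and 100657 in SCG tumor 8, against 87709 to 104595 in the adrenal tumors. All 10 measured hepatocyte markers were highest in adrenal tumor 6. The 3′ probe set of Gapdh exceeded the 5′ one by 5.51 in adrenal tumor 1 and by 0.47 to 1.57 in the others, a measure of RNA integrity. Fibroblast markers, centred gene by gene over the 8 tumors, averaged -1.74 in adrenal tumor 5, where 6 of 7 were lowest. Whether less RNA of a gene reflects fewer cells of a type or less RNA per cell cannot be told apart in bulk tumors.

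**Figure D1:**
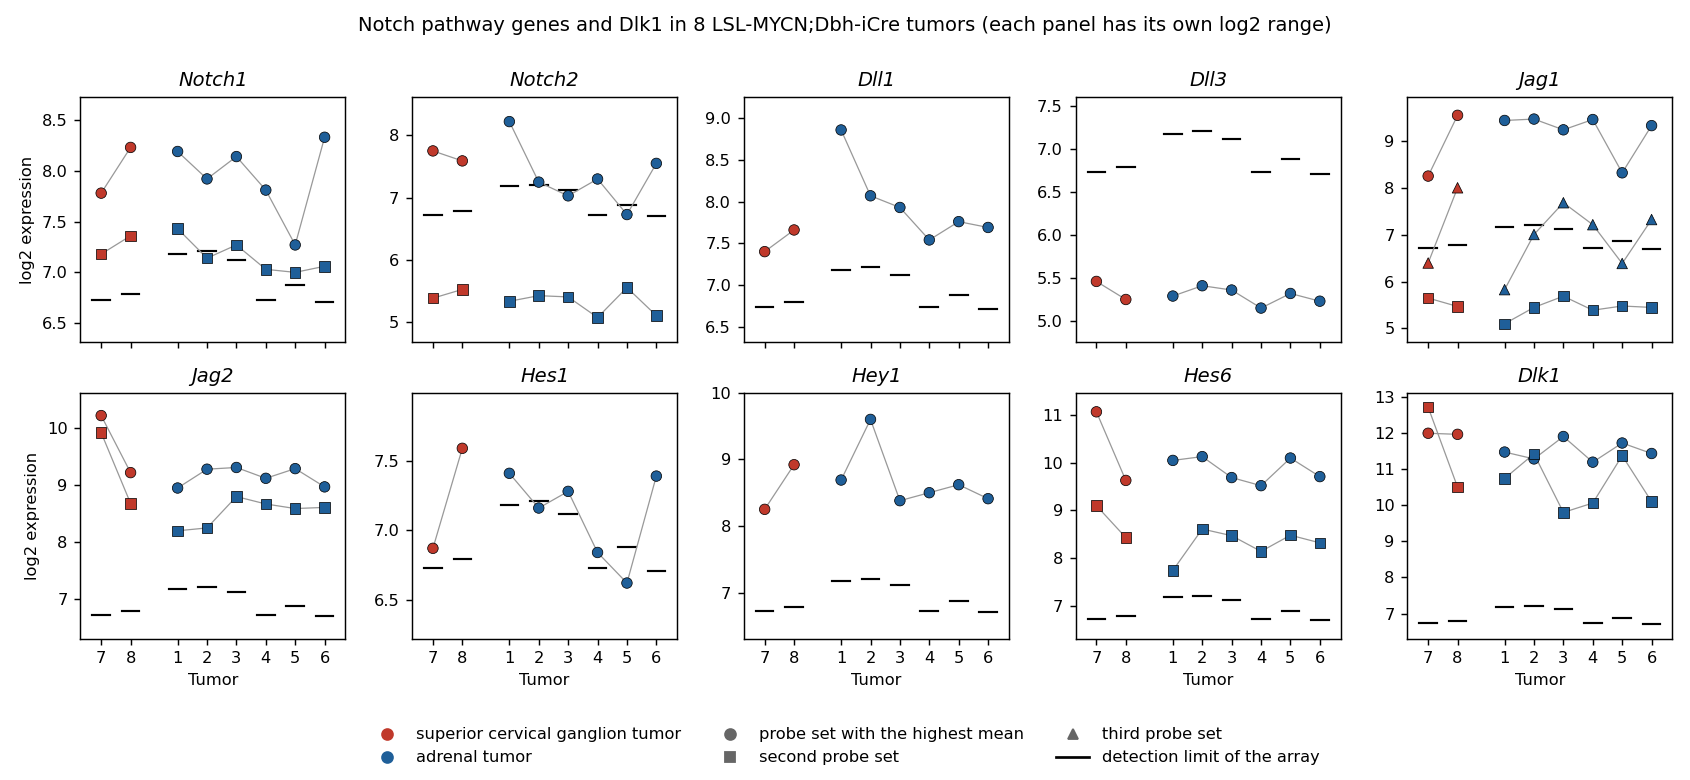
Log2 level (vertical axis, each panel with its own range) of all 17 probe sets of the 10 genes in SCG tumors 7 and 8 (red, left) and adrenal tumors 1 to 6 (blue, right); the marker shape gives the probe set and black dashes the detection limit of each array, and each point is 1 tumor. Both probe sets of Jag2, Hes6 and Dlk1 are highest in tumor 7, and all values of Dll3 lie under the limit.

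Notch1 and Notch2 were expressed close to the detection limit and were lowest in adrenal tumor 5. Notch1 was 7.78 and 8.23 in SCG tumors 7 and 8, and 8.19, 7.92, 8.14, 7.81, 7.27 and 8.33 in adrenal tumors 1 to 6, and it was detected in all. Tumor 5 thus had the lowest level, the SCG values lay inside the adrenal range, and without tumor 5 the SD over the tumors was 0.22 in place of 0.34. The second Notch1 probe set ran from 7.00 to 7.43, was also lowest in tumor 5, and was under the limit in tumor 2 alone. Its mean was only 0.27 above the limits of the arrays, so it adds little on the spread.

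Notch2 was 7.75 and 7.59 in SCG tumors 7 and 8, and 8.22, 7.25, 7.03, 7.30, 6.73 and 7.55 in adrenal tumors 1 to 6. It was highest in tumor 1 and not detected in tumors 3 and 5, and the sites overlapped. The second Notch2 probe set was under the limit in every tumor (5.08 to 5.56). Among all genes, those with profiles most like that of Notch2, by the mean absolute difference of centred values over the 8 tumors, were Phldb2 (0.11), Arap3 and Rgcc (0.12 each), Tpm2 and Litaf (0.13 each), against a median of 0.39. Tpm2, a tropomyosin of contractile cells, was highest in tumor 1 (9.45) and lowest in tumor 5 (7.92), which follows from its choice by likeness.

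The other 2 receptor genes were also lowest in tumor 5 and, like Notch2, highest in tumor 1. Notch3, the receptor of mural cells of vessels, was 8.12 and 8.38 in SCG tumors 7 and 8, and 8.91, 8.29, 8.09, 8.17, 7.70 and 8.03 in adrenal tumors 1 to 6. Notch4, the endothelial receptor, was 7.42 and 7.77 in the SCG tumors and 8.14, 7.32, 7.18, 7.29, 6.91 and 7.37 in the adrenal tumors. Both SCG tumors lay inside the adrenal range for both genes. Tumor 1, the tumor with the 5.51 Gapdh gap, was the highest for 26.3% of all genes tested, and the part of RNA integrity in these levels was not tested. Endothelial and pericyte markers were also low in tumor 5, but endothelial markers were mostly not highest in tumor 1. Of 10 endothelial markers, 6 were highest in tumor 8, against 7.9% of all genes tested, and 2 in tumor 1. In tumor 5, 9 of them were lowest, against 14.4% of all genes tested. Their summed level was 876 there, against 1940 and 2249 in SCG tumors 7 and 8 and 1168 to 1941 in the other adrenal tumors. Only 2 of the 10 were detected in all tumors, so these counts include values at background. Pericyte and smooth muscle markers summed to 2695 in tumor 5 and 7984 in tumor 1, against 3690 to 5885 in the rest, with 4 of 8 lowest in tumor 5 and 4 highest in tumor 1. Fibroblast markers summed to 3276 in tumor 5 and 28882 in tumor 1, against 12325 to 23147 in the rest. The part of these cells in the receptor levels was not tested.

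Of the ligand genes, Jag2 was high in SCG tumor 7, Jag1 was low there and in adrenal tumor 5, and Dll1 was high in adrenal tumor 1 alone. Dll1, a Delta ligand, was 7.40 and 7.66 in SCG tumors 7 and 8, and 8.86, 8.07, 7.93, 7.54, 7.76 and 7.69 in adrenal tumors 1 to 6. It was detected in every tumor, and 7 tumors lay within 0.67 of each other. Without tumor 1, the tumor with the largest Gapdh gap, its SD was 0.22 instead of 0.45. Dll3, a Delta-like protein that inhibits Notch within the cell that makes it, stayed under the limit of all 8 arrays at 5.15 to 5.46, at least 1.27 below it. This probe set thus did not tell Dll3 from background, which does not show that the RNA was absent. Dll4, the endothelial Delta ligand, ran from 6.17 to 6.85 and was detected in tumor 8 alone.

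Jag1, which encodes a Jagged ligand, was 8.26 and 9.56 in SCG tumors 7 and 8, and 9.45, 9.48, 9.25, 9.47, 8.33 and 9.34 in adrenal tumors 1 to 6. Tumors 7 and 5 lay at least 0.92 below all the others, which spanned 0.31, and the 2 SCG tumors were the lowest and the highest of the 8. Another Jag1 probe set was 6.40 and 8.01 in SCG tumors 7 and 8, and 5.83, 7.01, 7.69, 7.22, 6.39 and 7.33 in adrenal tumors 1 to 6. It was again highest in tumor 8 and low in tumors 7 and 5, but its lowest value was that of tumor 1, and it was detected in tumors 3, 4, 6 and 8 alone. A further Jag1 probe set was detected in none (5.10 to 5.69). Closest to the profile of Jag1 were Myl9 (mean absolute difference 0.10), Plaat3 (0.13), Casp6, Micall2 and Egflam (0.14 each), against a median of 0.44 over all genes. Myl9, a myosin light chain of smooth muscle chosen by this likeness, was 6.76 and 8.03 in SCG tumors 7 and 8. It was 6.91 in tumor 5 against 7.71 to 8.05 in the other adrenal tumors. The pericyte and smooth muscle markers as a list were not low in tumor 7. Centred gene by gene, they averaged 0.19 there, 0.43 in tumor 8 and -0.65 in tumor 5.

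Jag2, the second Jagged ligand gene, showed the opposite in tumor 7. It was 10.22 and 9.22 in SCG tumors 7 and 8, and 8.95, 9.28, 9.31, 9.12, 9.29 and 8.97 in adrenal tumors 1 to 6. Its second probe set was 9.92 and 8.68 in the SCG tumors and 8.20, 8.25, 8.80, 8.67, 8.59 and 8.61 in the adrenal tumors. Tumor 7 was the only tumor that stood apart on either, 0.91 and 1.12 above the next one, and tumor 8 lay inside the adrenal range on both. Relative to the mean of the other 7 tumors, tumor 7 was 2.08-fold and 2.59-fold higher on the 2 probe sets. The SD over the tumors was 0.40 with tumor 7 and 0.15 without it on the first probe set.

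The canonical target genes did not share one pattern. Hes1, a repressor often used as a Notch readout, was 6.87 and 7.59 in SCG tumors 7 and 8, and 7.41, 7.16, 7.28, 6.84, 6.62 and 7.39 in adrenal tumors 1 to 6. All values were within 0.80 of the limit, those of tumors 2 and 5 were under it, and tumor 5 was again the lowest. Hey1, a repressor of the HEY family, was 8.25 and 8.92 in SCG tumors 7 and 8, and 8.69, 9.60, 8.38, 8.50, 8.62 and 8.41 in adrenal tumors 1 to 6. Tumor 2 stood 0.68 above the next tumor, tumor 7 was the lowest, and without tumor 2 the SD was 0.22 in place of 0.43. Hey1 was detected in every tumor.

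Hes6 was 11.07 and 9.63 in SCG tumors 7 and 8, and 10.05, 10.13, 9.69, 9.52, 10.10 and 9.71 in adrenal tumors 1 to 6. The second probe set was 9.10 and 8.43 in the SCG tumors and 7.74, 8.61, 8.47, 8.14, 8.48 and 8.32 in the adrenal tumors. Both were detected everywhere and highest in tumor 7, 2.36-fold and 1.72-fold above the mean of the other 7 tumors. They disagreed on the lowest tumor, which was 4 on the first and 1 on the second. The genes with profiles closest to Hes6 were Mpp6 (mean absolute difference 0.05), Laptm4b (0.07), Brk1, Rell2 and Kcna4 (0.10 each), against a median of 0.40 over all genes. All 5 were highest in tumor 7, which follows from their choice by likeness to Hes6. Brk1, a subunit of the WAVE actin regulator, was 14.38 there and 12.48 to 13.03 elsewhere.

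Dlk1 was detected far above background in every tumor, at least 4.07 above the limit on its first probe set and 2.68 on the second. The first probe set was 11.99 and 11.96 in SCG tumors 7 and 8, and 11.47, 11.28, 11.90, 11.19, 11.72 and 11.43 in adrenal tumors 1 to 6. Both SCG tumors lay above all 6 adrenal tumors, by 0.06 for the nearest pair. The second probe set was 12.71 and 10.50 in the SCG tumors and 10.74, 11.42, 9.80, 10.06, 11.37 and 10.10 in the adrenal tumors. On it the sites overlapped, tumor 7 lay 1.29 above the next tumor and 4.41-fold above the mean of the other 7, and the SD was 0.96 against 0.32 on the first. Adrenal tumor 3 had the highest adrenal value on the first probe set and the lowest of all on the second, so the order of the tumors in Dlk1 depended on the probe set.

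The 4 other measured genes of the imprinted domain around Dlk1 and its flanks were each highest in an adrenal tumor. Tumor 7 was next to the highest for Meg3 and Mirg. Begain, Rtl1 and Dio3 of the same list were not measured. Meg3, the maternally expressed long noncoding RNA of the domain, was 13.99 and 13.72 in SCG tumors 7 and 8 and 13.60 to 14.39 in the adrenal tumors. Rian was 13.37 and 13.94 in the SCG tumors and 13.31 to 13.98 in the adrenal tumors. Mirg varied more, at 10.07 and 9.42 in the SCG tumors and 7.96 in tumor 1 against 8.94 to 10.46 in the other adrenal tumors. Its lowest value was in tumor 1, the tumor with the 5.51 Gapdh gap. Wdr25, which flanks the domain, ran from 7.20 to 8.01.

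The site comparison asked whether SCG and adrenal tumors differ in these genes. With limma across 16254 genes, 0 of the 10 genes passed an adjusted p of 0.05, and 3 genes passed over the whole array (0.0185%). At an unadjusted p under 0.05, 2 of the 10 (Dlk1 and Jag2) passed, against 4.68% of all genes. This count was 0 when any one of tumors 1, 2, 4, 6 and 7 was left out, 1 without tumor 3 or tumor 5 and 3 without tumor 8. Dlk1 was 11.98 ± 0.02 in SCG tumors and 11.50 ± 0.27 in adrenal tumors (SD, n = 2 and 6), a log2 difference of 0.48 with an SE of 0.20 and a 95% interval of 0.03 to 0.93 (limma, adjusted p = 0.90). It was the only one of the 10 whose sites did not overlap, as did 4.42% of all genes tested. An exact two-sided permutation test of the site labels gave p = 0.071 for it, where the 28 splits allow no p below 0.036. On its second probe set the difference was 1.02 with an interval of -0.43 to 2.47.

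Jag2 was 9.72 ± 0.70 in SCG tumors and 9.15 ± 0.17 in adrenal tumors, a difference of 0.57 with an SE of 0.25 and an interval of 0.01 to 1.12 (limma, adjusted p = 0.90; exact permutation p = 0.14). Hes6 was 10.35 ± 1.02 in SCG tumors and 9.87 ± 0.26 in adrenal tumors, a difference of 0.48 with an interval of -0.30 to 1.26 (limma, adjusted p = 0.90). These differences rested on tumor 7. With SCG tumor 7 left out they were 0.07 for Jag2 and -0.24 for Hes6, and 0.16 and 0.14 on their second probe sets. Dlk1 without tumor 7 differed by 0.46 on the first probe set but by -0.08 on the second, whose difference thus also rested on tumor 7. With SCG tumor 8 left out, so that tumor 7 alone stood for the SCG and was assumed to vary like the adrenal tumors, Jag2 (1.06, limma adjusted p = 0.0237) and Hes6 (1.21, limma adjusted p = 0.0398) passed, among 5.87% of all genes. In tumor 7 the noradrenergic markers were 11 of 11 lowest, and fast skeletal muscle markers summed to 2207 in tumor 7 and 1655 in tumor 8, against 686 to 901 in the adrenal tumors. Their part in the levels of Jag2 and Hes6 was not tested.

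For the remaining 7 genes the intervals held 0. Notch1 differed by 0.06 (-0.56 to 0.68), Notch2 by 0.33 (-0.43 to 1.09), Hes1 by 0.12 (-0.49 to 0.72) and Hey1 by -0.12 (-0.87 to 0.63), with limma adjusted p-values of 0.94 to 0.99. Dll1 differed by -0.44 (-1.16 to 0.28) and Jag1 by -0.31 (-1.20 to 0.57). The SCG tumors of Jag1 lay 1.30 apart, more than any 2 adrenal tumors (up to 1.15). Dll3, under the limit throughout, differed by 0.06. Intervals of this width do not show that the sites were alike. On the whole array, 3 genes passed: Acta1 (2.21) and Tnnt3 (1.52), of skeletal muscle, and Clvs2 (2.33). Clvs2 was chosen after its values were seen. Tnnt3 was detected in no tumor (at most 6.23). Clvs2 reached at most 6.36, in tumor 8, and was also under the limit in every tumor.

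**Figure D2:**
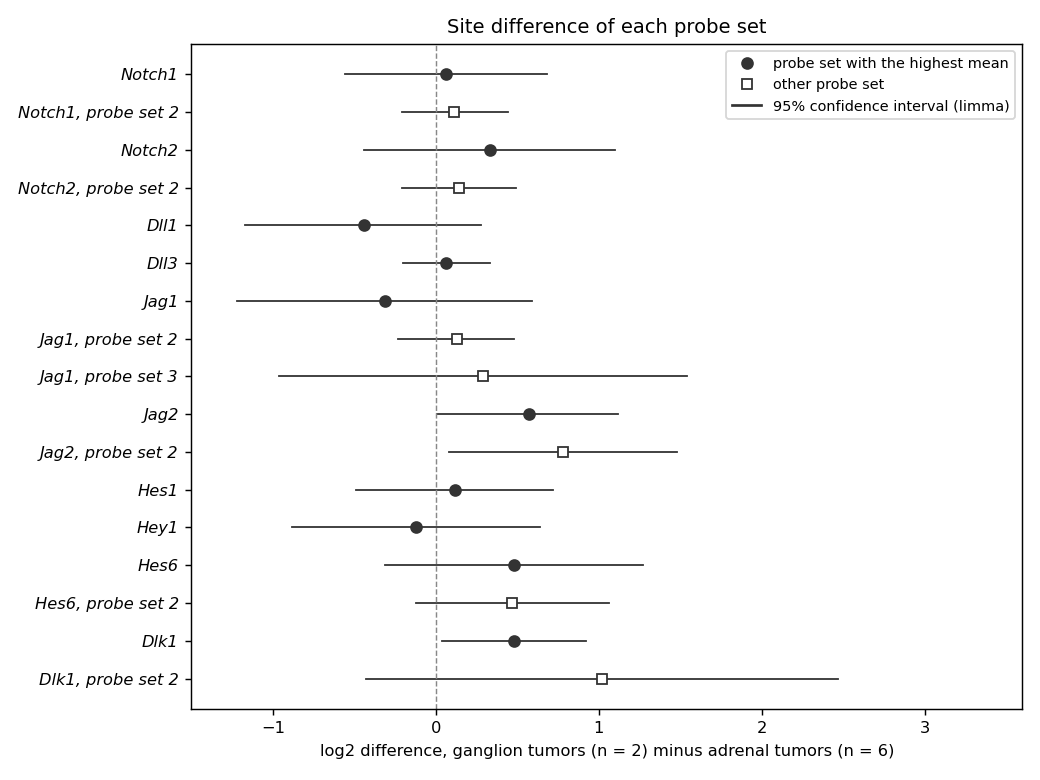
Log2 difference, SCG tumors (n = 2) minus adrenal tumors (n = 6), of each of the 17 probe sets; bars are 95% confidence intervals from limma, filled circles the probe set with the highest mean and open squares the others. Intervals of Jag2 (both probe sets) and of the first Dlk1 probe set lie above 0 before adjustment, and none passes after it.

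Tumor 7 held more extreme values of these genes than any other tumor. On the probe set with the highest mean, 4 of the 10 genes were highest in it (Jag2, Hes6, Dlk1 and the undetected Dll3) and 3 were lowest (Dll1, Jag1 and Hey1). Over all genes tested, 17.3% were highest and 26.4% lowest in tumor 7. Tumor 5 was the lowest for 3 genes, Notch1, Notch2 and Hes1, against 14.4% of all genes tested, and tumor 4 for 3 others, Dll3, Hes6 and Dlk1, against 12.8%. The SDs of the 10 genes lay between 0.10 (Dll3) and 0.53 (Jag1), against a median of 0.26 over all genes tested.

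The rest of the pathway was read from 12 lists, of whose 82 genes 73 were measured and 70 were tested. Every tumor had detected levels of 55 of the 73, against 54.6% of all genes, and no tumor had them for 9, against 30.9%. In the site comparison 0 of the 70 passed the adjusted threshold, and 5 had an unadjusted p under 0.05 (limma), against 4.68% of all genes. These 5 were Nhlh1 (1.28), Neurod2 (1.23) and Neurod1 (1.19), higher in SCG tumors, and Dtx1 (-1.35) and Neurl1b (-0.77), lower in them. In all 5 genes tumor 8 lay inside the adrenal range. The median difference of the 70 was -0.03, as over all genes.

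Machinery that makes, cuts and reads the receptor was broadly present. SCG tumor 7 had 11.20 for Psenen, a γ-secretase subunit, against 11.93 to 12.26 elsewhere, and 7.93 for Aph1b, another subunit, against 8.74 to 9.50. Adam10, which makes the first cut, was 11.49 ± 0.20 (SD, n = 8 tumors), and Rbpj, the DNA-binding partner of all Notch receptors, was 10.73 ± 0.12. The γ-secretase subunit Ncstn was at most 7.09 and detected in no tumor on its probe set, and neither was the coactivator Maml2. Of the corepressors, Ctbp1 was 13.03 ± 0.08 and Hdac2 12.92 ± 0.15. Fbxw7, a ubiquitin ligase subunit that targets the Notch intracellular domain for degradation, measured 10.25 in tumor 7, against 10.91 to 11.84 in the rest. Neurl1b, a ubiquitin ligase of Notch ligands, measured 7.17 in tumor 7, against 8.25 to 8.95 in the rest.

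Among the fringe enzymes, which add sugars to the receptor and alter its choice of ligand, 1 gene stood out. Mfng was 10.51 and 7.68 in SCG tumors 7 and 8, and 8.04, 7.58, 7.56, 7.22, 7.80 and 8.37 in adrenal tumors 1 to 6. Tumor 7 was thus the only high tumor, with tumor 8 inside the adrenal range. Rfng ran from 9.85 to 10.70, and Lfng was detected in no tumor (5.29 to 5.75). The site difference of Mfng was 1.33 with an SE of 0.62 (limma, adjusted p = 0.90).

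Noncanonical ligands varied among the adrenal tumors. Dner, a neuronal surface protein with EGF repeats, was 11.87 and 11.99 in SCG tumors 7 and 8, and 11.30, 13.05, 10.52, 11.85, 12.85 and 12.24 in adrenal tumors 1 to 6. Cntn1, a neuronal adhesion protein, was 10.97 and 11.01 in the SCG tumors and 10.32, 12.29, 10.90, 10.99, 12.12 and 10.93 in the adrenal tumors. Tumors 2 and 5 were the 2 highest for both genes, and the SCG tumors lay in the middle of the range. Dlk2, the relative of Dlk1, was highest in tumor 2 (9.13) and then tumor 7 (8.67), with 7.47 to 8.18 in the others. Egfl7, a secreted endothelial protein, ran from 9.03 in tumor 5 to 9.68 in tumor 1.

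Most other target genes were lowest in SCG tumor 7 or adrenal tumor 5. Of 9 listed targets, 4 were lowest in tumor 7 and 4 in tumor 5, against 26.4% and 14.4% of all genes tested. With every gene centred over the tumors, the list mean was -0.80 in tumor 7 and 0.29 in tumor 8. It was -0.65 in tumor 5 against -0.08 to 0.39 in the other adrenal tumors. Count and mean include genes at background, since only 3 of the 9 were detected in all tumors. Hes5, a HES repressor, was lowest in tumor 7 at 6.35 but under the limit in every tumor (6.35 to 6.92). Hey2 was 4.02 and 5.73 in SCG tumors 7 and 8, and 5.78, 5.22, 7.27, 6.10, 4.30 and 6.89 in adrenal tumors 1 to 6. It was above the limit only in tumors 3 and 6, so that its lowest values, in tumors 7 and 5, were at background. Dtx1, a regulator of Notch trafficking and itself a target, was 8.66 and 11.05 in the SCG tumors and 10.79 to 11.64 in the adrenal tumors, so that it was low in tumor 7 and not in tumor 5. Id3, a helix-loop-helix inhibitor that also answers to BMP signals, was 7.01 and 9.82 in the SCG tumors, and 7.37 in tumor 5 against 8.82 to 9.62 in the other adrenal tumors. Id1 was 7.80 and 9.36 in the SCG tumors, and 6.69 in tumor 5 against 7.79 to 9.28 in the other adrenal tumors.

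Hes1, Hey1 and Jag1 were also in the lower part of their ranges in tumor 7, and Hes1 and Jag1 in tumor 5. Markers of Schwann cells and glia, a cell type in which Notch signals are known to act, were low in the same tumors by their centred mean. Their list mean was -1.23 in SCG tumor 7 and 0.16 in SCG tumor 8, and -0.71 in adrenal tumor 5 against -0.32 to 0.81 in the other adrenal tumors. Fabp7 was 4.15 and 6.78 in SCG tumors 7 and 8, and 4.62 in tumor 5 against 8.35 to 11.29 in the other adrenal tumors. Mbp, a myelin gene, went the other way, with 10.60 in tumor 7 and 8.45 in tumor 8, and 9.82 in tumor 5 against 8.35 to 9.87 in the other adrenal tumors. Of the 8 measured markers, 5 were lowest in tumor 7 and 2 in tumor 5, against 26.4% and 14.4% of all genes tested. Gfap was detected in no tumor. The summed level was 2113 in tumor 7 and 2321 in tumor 8, and 1716 in tumor 5 against 1553 (tumor 2) to 4997 in the other adrenal tumors. By the sum, tumor 2 was thus the lowest, so the order of the tumors depended on the summary. Macrophage markers were also low in tumors 7 and 5, with sums of 7573 and 8909, against 11788 to 16090 in the others. The part of these cells in the target levels was not tested.

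**Figure D3:**
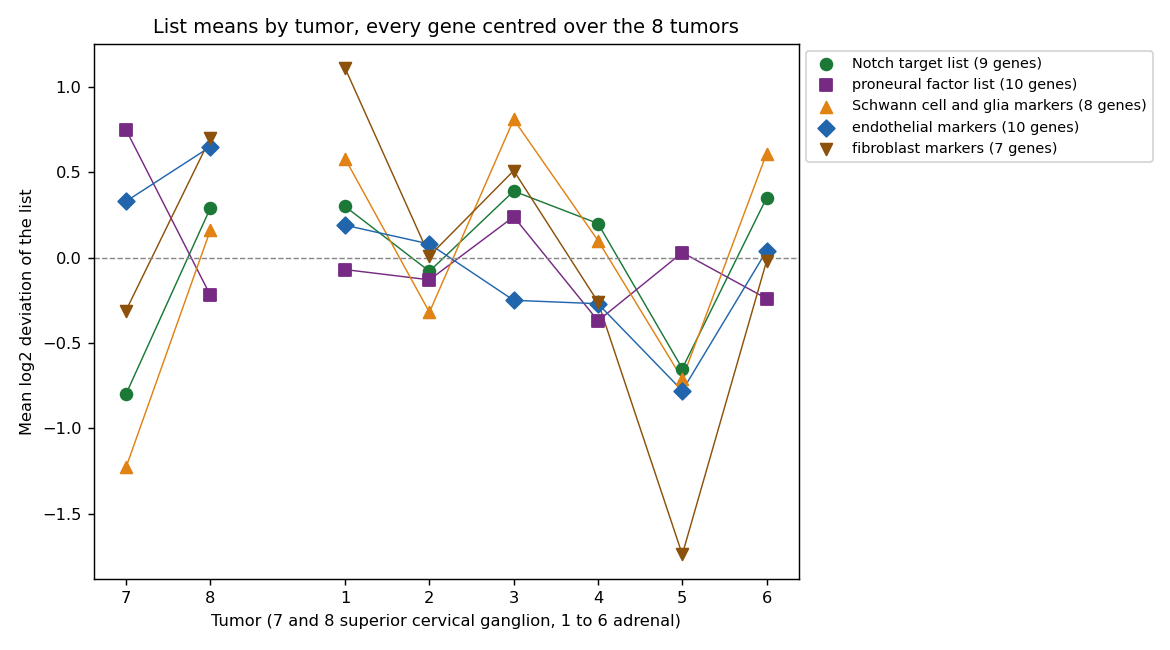
Mean log2 deviation (vertical axis) of 5 gene lists in SCG tumors 7 and 8 (left) and adrenal tumors 1 to 6 (right), with every gene centred over the 8 tumors; lists differ in color and marker, and a point averages the measured genes of 1 list. The Notch target list lies at -0.80 in tumor 7 and -0.65 in tumor 5, and the Schwann cell and glia markers at -1.23 and -0.71.

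Several detected proneural factors, of a class that HES repressors hold back, were highest in SCG tumor 7. Of 10 measured factors 5 were highest there, against 17.3% of all genes tested. The list mean was 0.75 in tumor 7 and -0.22 in tumor 8, against -0.37 to 0.24 in the adrenal tumors. Count and mean include genes at background, since 5 of the 10 were detected in no tumor. One of these, Neurod4, was among those highest in tumor 7. Neurod1 was 11.99 and 10.07 in SCG tumors 7 and 8, and 10.37, 9.79, 9.77, 9.80, 9.17 and 10.11 in adrenal tumors 1 to 6. Neurod2 was 9.74 and 7.49 in the SCG tumors and 7.39, 7.37, 7.58, 7.21, 7.28 and 7.44 in the adrenal tumors. Both act late in neuronal differentiation, and tumor 8 lay inside the adrenal range for both.

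Nhlh1 was detected in tumor 7 alone, at 7.31 against 4.60 to 5.09 in the other tumors. Insm1, a zinc finger factor of neuroendocrine cells, was 12.28 and 10.91 in the SCG tumors and 11.31 to 11.80 in the adrenal tumors, so that the 2 SCG tumors were the extremes. Nhlh2 had another pattern, at 7.00 and 5.11 in SCG tumors 7 and 8, and 9.75 in tumor 3 and 8.90 in tumor 5 against 5.04 to 6.21 in the other adrenal tumors. Neurog1, Neurog2, Neurog3, Neurod4 and Atoh1 were detected in no tumor. In tumor 5, where Hes1 (under the limit there) and 4 of the 9 listed targets were lowest, Neurod1 was also the lowest of the 8 tumors. Nhlh2 was next to its highest there, and the list mean of the proneural factors was 0.03. A link between target and proneural levels was not tested.

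**Figure D4:**
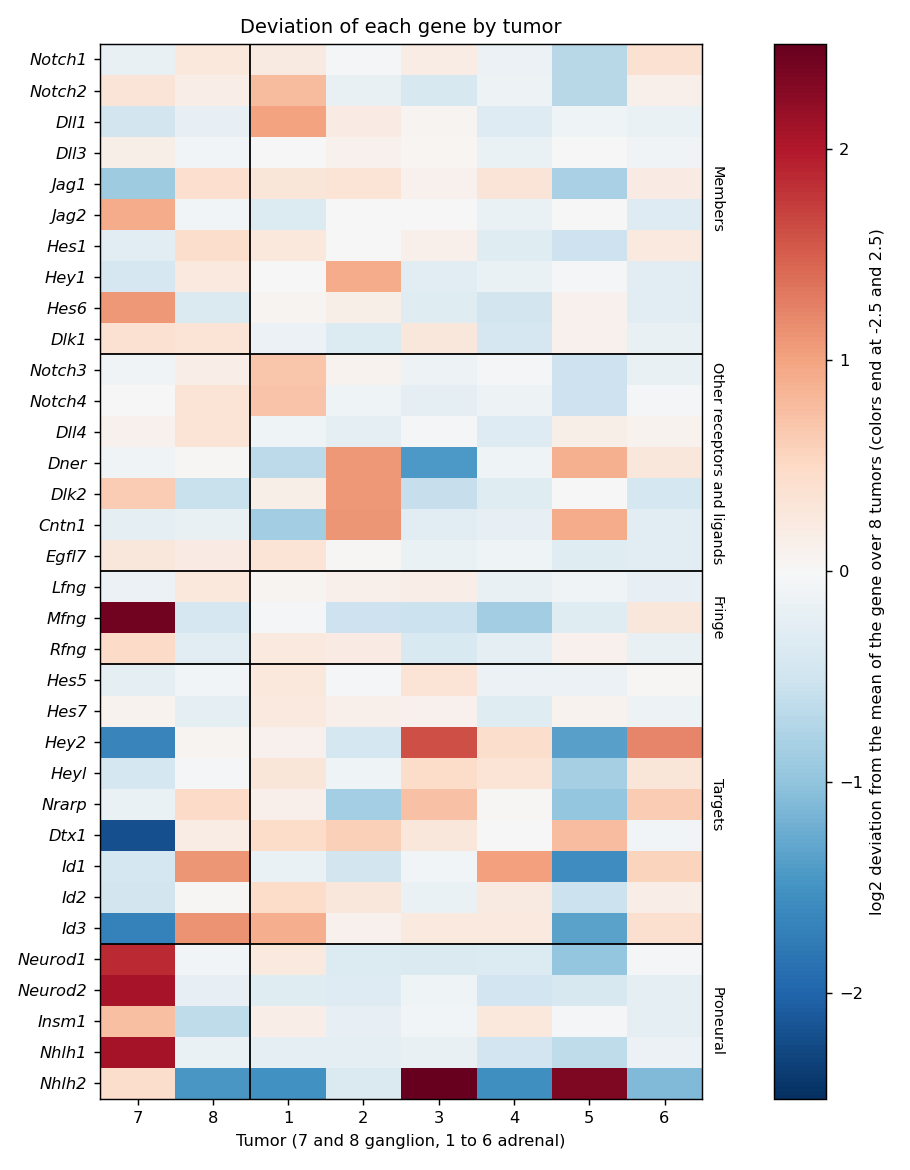
Log2 deviation from the mean of the gene over 8 tumors (color, ends at -2.5 and 2.5) for the 10 genes and for listed receptors, ligands, fringe enzymes, targets and proneural factors (1 gene per line); tumors 7 and 8 (SCG) are left of the line and tumors 1 to 6 (adrenal) right of it. Mfng, Neurod1, Neurod2 and Nhlh1 are dark red in tumor 7 and in no other tumor, Dtx1 is dark blue there, and Nhlh2 is dark red in tumors 3 and 5.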

How the data were processed

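Total RNA of 8 tumors was measured on 1 Affymetrix array each. The authors deposited log2 expression values per probe set, already background-corrected and normalized. Which normalization was applied is unsettled: RMA and Partek 6.6 stand in the submitters' processing notes, but gcRMA in the Methods. Values ran from 3.00 to 15.27, the upper quartiles of the arrays from 8.85 to 8.93, and 43.1% to 51.7% of probe sets per array were detected. The number of arrays limits the precision.

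Probe sets were named from the platform annotation, with symbols updated through Entrez identifiers (34754 matched). Of 45101 probe sets, 34958 had 1 gene, 932 several and 9211 none. Each gene was taken at its probe set with the highest mean, and 16254 genes, those over log2 5 in 2 or more tumors, entered lmFit and eBayes of limma 3.58.1 (R 4.3.3), with p-values adjusted by Benjamini-Hochberg and a threshold of 0.05. This step was tested on simulated data. Permutation tests used scipy 1.17.1, tables pandas 2.3.3 and numpy 2.4.6, and plots matplotlib 3.10.9, under Python 3.11.15. Promoter windows came from RefSeq (GRCm38.p6). Alternatives covered normalization, filter, probe set choice, test, detection limit and each tumor left out; leaving out tumors 1, 6 and 7 together was added after seeing the data.

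The genes and lists were chosen with earlier results of these data known. Named are all 10 genes; per list up to 4 genes with the highest mean, up to 4 with the highest SD and those detected nowhere; and the 5 genes most alike for the 3 genes with the highest SD. Figures, counts of a list and results far from the rest can name others. List genes without a named probe set were not analysed here.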

Additional observations from a re-analysis of the deposited data

Results flagged for a closer look

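A tumor was marked where its gap to the nearest other tumor, divided by the whole range, exceeded Dixon's 95% critical value. Chance gives this in about 1 in 20 comparisons. Of 34 comparisons of the 17 probe sets (over all 8 tumors and over the 6 adrenal tumors), 6 were marked. Of all genes tested, 15.1% were marked by the same measure, so marks on these probe sets are not particular to them. No separate share over all genes is given for the adrenal tumors alone. The share was 0.716 and 0.648 for the 2 probe sets of Jag2 and 0.605 for the first Hes6 probe set, each high in SCG tumor 7. It was 0.545 for Dll1, high in adrenal tumor 1. Among the adrenal tumors alone it was 0.804 for Jag1, low in tumor 5, and 0.742 for Hey1, high in tumor 2.

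Of 73 other pathway genes, 13 were marked (17.8%), 10 of them in tumor 7 (13.7%). Over all genes tested, 15.1% were marked by the same measure and 7.5% in tumor 7, so marks were common across these arrays. High in tumor 7 were Mfng (0.651), Neurod1 (0.575), Neurod2 (0.856), Nhlh1 (0.821) and Neurod4 (0.556), the last at 4.32 and under the detection limit. Low in tumor 7 were Dtx1 (0.713), Psenen (0.692), Neurl1b (0.605), the coactivator Crebbp (0.636, 10.28 against 10.78 to 11.06) and the acetyltransferase Kat2b (0.550, 9.54 against 10.08 to 10.52). In tumor 1, Maml1 (0.659) and Dtx2 (0.545) were high and Tle5 (0.613) was low. Maml1, a Notch coactivator, was 9.91 there and 8.67 to 9.09 in the others, Dtx2, a Deltex relative, 9.80 against 9.06 to 9.39, and Tle5, a Groucho relative, 8.63 against 9.30 to 9.72. Dtx2 was chosen after its values were seen.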

How the results depend on the processing

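None of the 10 genes passed the adjusted threshold in the site comparison under quantile normalization, without the filter, with the mean of a gene's probe sets, with trended and robust eBayes, with all probe sets tested or without tumors 1, 6 and 7; 2 did at an unadjusted p. With 1 tumor left out the count was 0 to 2, and 2 only without SCG tumor 8 (Jag2 and Hes6). Over the array, 3 genes passed, 6 with the mean of probe sets, 5 with all probe sets, 7 without tumors 1, 6 and 7, and 2 to 954 with 1 tumor left out (954 without tumor 8, 11 without tumor 7). For each of the 10 genes, 11 alternatives could change the site difference itself. Of these 110 values, 96 kept their sign and 14 turned it, none of them in Notch2, Dll1 or the first Dlk1 probe set; the second Dlk1 probe set turned from 1.02 to -0.08 without tumor 7, a value added after seeing the data. The count at an unadjusted p was 1 with trended and robust eBayes. Without tumors 1, 6 and 7, differences were 0.44 for Dlk1, -0.03 for Jag2 and -0.24 for Hes6, from 1 SCG tumor against 4. The cause was not tested. The count of genes detected in all tumors was 7 with any 1 tumor left out, 6 at the 99th percentile, 10 at log2 5, 7 with any probe set and 5 with every probe set. Notch2, Hes1 and the second Notch1 probe set lay so near the limit that signal over background bounds what they show.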
